A study of Mus musculus with 24 samples.

Results

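The hepatocytes that ring the central vein of each liver lobule are kept in a distinct state by Wnt signalling, and 10 genes known as markers or targets of that state were followed here in the livers of mice on 4 diets. The genes were Glul, Oat, Slc1a2, Rhbg, Slc13a3, Cnmd (listed under its older name Lect1), Axin2, Lgr5, Rnf43 and Tbx3, chosen by name. The array annotation named 24 probe sets for them, and 1 more probe set carried the symbols of Slc1a2 and a second gene. All 10 genes had at least 1 probe set that passed the filter on low values, which asked for a value above the median of all probe sets (3.147) in at least 6 of the 24 arrays, and they made up 10 of the 13385 genes tested. Each gene was tested on its probe set with the highest mean.

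Liver gene expression was measured on 1 Affymetrix array per mouse in 24 female NMR-1 mice that were 8 weeks old at the start and stayed 2 weeks on their diet. The cafeteria diet was made of cooked canteen meals, the fast food diet of fast food alone, the chimpanzee diet of fruit, vegetables and yogurt, and the pellet diet the standard feed the animals were raised on. There were 6 mice per diet, with 3 in each of the 2 batches that the labels give. The question behind the design was whether diets typical of humans, which are the cafeteria and fast food diets pooled (12 mice), act on the liver differently from a diet typical of chimpanzees or from pellets.

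Wnt ligands made by endothelial cells of the central vein bind Frizzled and Lrp5 or Lrp6 on the neighbouring hepatocytes, which spares beta-catenin from destruction and lets it switch on target genes together with TCF factors. R-spondins strengthen the signal through Lgr4 and Lgr5. The hepatocytes next to the vein take up glutamate and ammonium and turn them into glutamine, while urea synthesis and gluconeogenesis lie mainly at the portal end of the lobule. The tissue was whole dissected liver, so fewer pericentral cells and less RNA per pericentral cell cannot be told apart.

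All values are log2 expression, the error of a difference is its standard error, and the mean of a diet is given with the SD of its 6 mice (12 for the human diets). A difference was called at a limma p-value of 0.05 after Benjamini-Hochberg adjustment over the 13385 genes, with batch in the model. Brightness on an array depends on the probes, so levels are compared between diets and not between genes.

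Before the genes are described, some properties of the arrays that bear on them are given. Correlations between arrays ran from 0.9251 to 0.9955, and the 90th percentile of the values was 6.50 ± 0.07 (SD) in the 12 arrays of batch 1 and 6.04 ± 0.20 in the 12 of batch 2. The probe sets for the 3' end of the control gene beta-actin exceeded those for its 5' end by 0.85 ± 0.11 on the human diets, 1.08 ± 0.15 on the chimpanzee diet and 0.75 ± 0.14 on pellets, a measure of RNA quality that thus moved with diet. None of the 6 hepatocyte markers was called in any comparison, and the albumin gene Alb stood at 12.77 ± 0.11 on human diets, 12.74 ± 0.11 on the chimpanzee diet and 12.78 ± 0.06 on pellets. Of the 10 Kupffer cell markers, 5 were lower on the chimpanzee diet than on pellets, 1 (Cd68) was higher on the fast food than on the chimpanzee diet, and their summed level ran from 8.76 to 10.7 on human diets, from 8.80 to 10.1 on the chimpanzee diet and from 9.90 to 10.8 on pellets. Of 11 endothelial, 8 stellate cell and 3 cholangiocyte markers tested, Cdh5 and Col3a1 were lower on the chimpanzee diet than on pellets, Eng was lower on the cafeteria diet than on pellets, Col3a1 was higher on human diets than on the chimpanzee diet, and no cholangiocyte marker was called. Among all genes, 10.4% were called for the chimpanzee diet against pellets and 4.80% for the cafeteria diet against pellets. The shares were 2.03% for the fast food and 1.49% for the human diets against the chimpanzee diet. The part of RNA quality and of other cell types in the results below was not tested beyond the values given beside them.

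Across the 4 diets, 1 of the 10 genes passed the moderated F test, against 9.00% of all genes tested, and that gene was Oat (adjusted p = 0.0199). The call of Oat was lost without replicate 1 of the chimpanzee mice of batch 2 (adjusted p = 0.0575), with the beta-actin difference as a covariate (adjusted p = 0.0928), with batch left out (adjusted p = 0.13) and in each batch alone (adjusted p = 0.216 in batch 1 and 0.623 in batch 2). Slc13a3, Cnmd and Slc1a2 followed at adjusted p = 0.0543, 0.0601 and 0.0772, and 5 of the 10 genes had an unadjusted p under 0.05, as had 20.8% of all genes. Slc13a3, Cnmd and Slc1a2 were called when the arrays were further normalized by cyclic loess (adjusted p = 0.00768, 0.0417 and 0.00927). They were also called after quantile normalization (adjusted p = 0.0174, 0.0314 and 0.0217). None of them was called with batch left out, in batch 2 alone or with the beta-actin difference as a covariate. For Rhbg, Tbx3, Axin2, Lgr5, Glul and Rnf43 the adjusted p lay between 0.208 and 0.815.

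**Figure D1:**
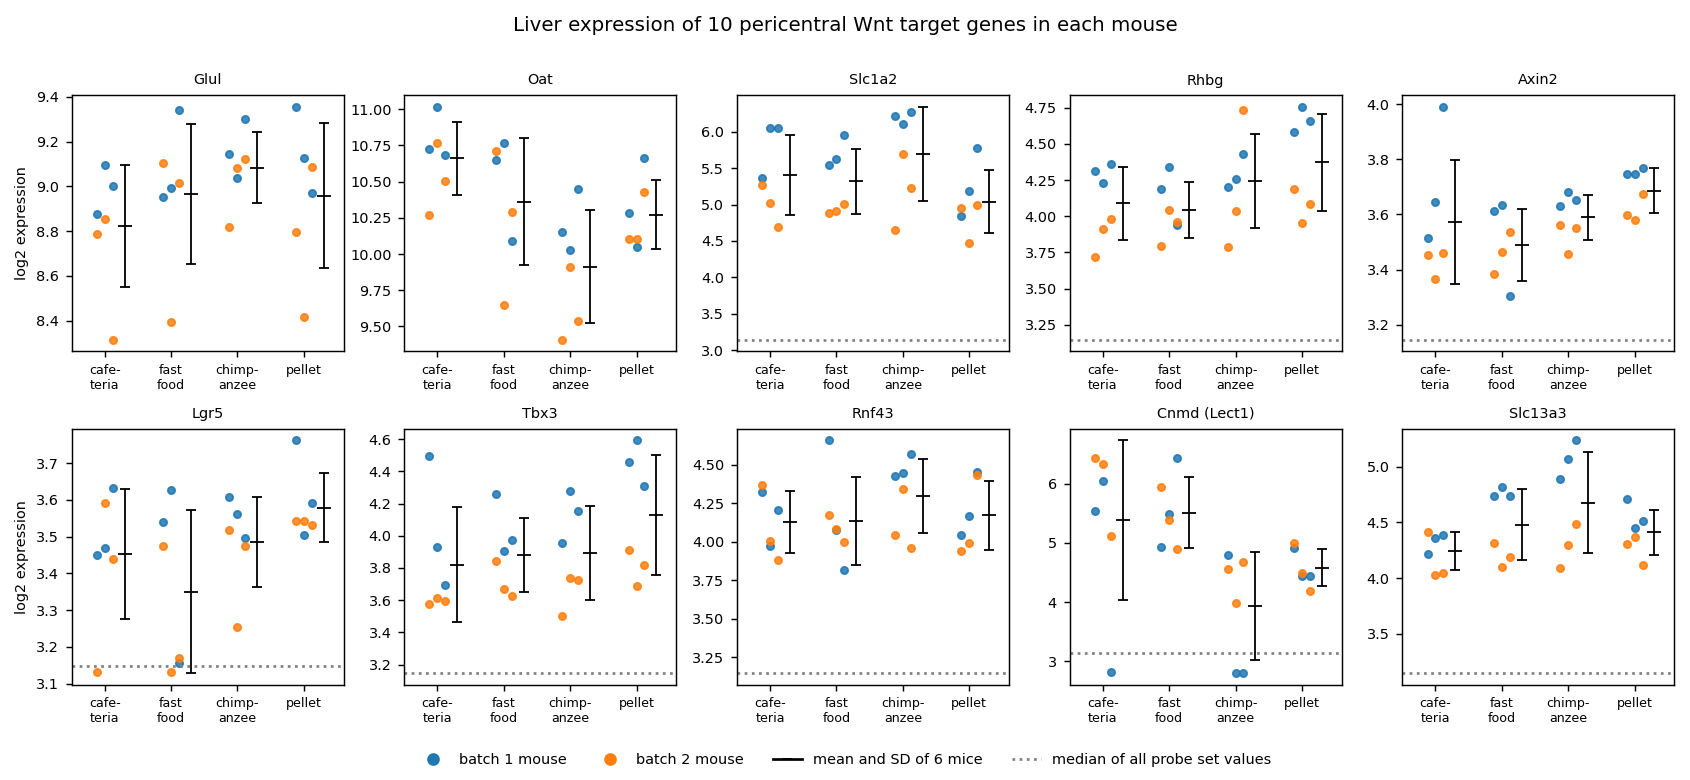
Log2 expression of the tested probe set of each gene (vertical axis, its own range in each panel) in every mouse on the 4 diets, with mice of batch 1 in blue, mice of batch 2 in orange, and the mean and SD of 6 mice as black bars. Blue points lie mostly above orange ones within a diet, and in the panel of Cnmd 3 batch 1 mice stand near 2.8, below the median of all probe set values (3.147, dotted, outside the range of the panels of Glul and Oat).

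Batch moved with the level of most of the genes. The mean of the tested probe set was higher in batch 1 for 9 of the 10 genes, by 0.13 for Lgr5 up to 0.77 for Slc1a2, and Cnmd was the exception, with a batch 1 mean lower by 0.46. For this reason each called difference is also given within each batch.

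Oat encodes ornithine aminotransferase, a mitochondrial enzyme that turns ornithine into a precursor of glutamate and proline. Its level had a lowest, median and highest value of 10.27, 10.71 and 11.02 on the cafeteria diet, 9.65, 10.47 and 10.76 on the fast food diet, 9.41, 9.97 and 10.45 on the chimpanzee diet, and 10.05, 10.20 and 10.66 on pellets. The cafeteria mice were the highest of the 4 diets and the chimpanzee mice the lowest, and the ranges of all neighbouring diets overlapped. Means were 10.66 ± 0.25 on the cafeteria diet, 10.36 ± 0.44 on the fast food diet, 9.91 ± 0.39 on the chimpanzee diet and 10.27 ± 0.24 on pellets.

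Oat was higher on the cafeteria than on the chimpanzee diet by 0.75 ± 0.16, or 1.68-fold (adjusted p = 0.0193). In batch 1 the means were 10.81 on the cafeteria diet and 10.21 on the chimpanzee diet, in batch 2 they were 10.52 and 9.62 for the cafeteria and the chimpanzee diet, and within each batch all 3 cafeteria mice lay above all 3 chimpanzee mice. The difference was 0.60 in batch 1 alone (adjusted p = 0.208) and 0.90 in batch 2 alone (adjusted p = 0.617), and it was 0.63 (adjusted p = 0.184) with the beta-actin difference as a covariate. Leaving out 1 mouse gave 0.68 to 0.83, and the call was lost without replicate 2 of the cafeteria mice of batch 1 (adjusted p = 0.0662), replicate 2 of those of batch 2 (adjusted p = 0.0645) or replicate 1 of the chimpanzee mice of batch 2 (adjusted p = 0.0559). No other pair of diets was called for Oat: the fast food diet exceeded the chimpanzee diet by 0.45 ± 0.16 (adjusted p = 0.148), the cafeteria diet exceeded pellets by 0.39 ± 0.16 (adjusted p = 0.22), and the chimpanzee diet differed from pellets by -0.36 ± 0.16 (adjusted p = 0.184).

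The promoter of Oat is shown because it is the only gene of the 10 called across the diets, beside those of the other genes called in a pair of diets for which a sequence was at hand. Each window runs from 250 bases before to 50 bases after the start of the gene (RefSeq, GRCm38.p6), and was searched on both strands for CTTTGAT and CTTTGAA, the core letters bound by TCF factors. Of the 10 genes, 7 had a window in the table used, with 8 windows in all. The window of Slc1a2 held the only match, where 8.7% of all 32851 windows held at least 1 (3.7% CTTTGAT, 5.1% CTTTGAA). Rhbg, Tbx3 and Lgr5 are named only. Capitals mark the match, which is CTTTGAT on the minus strand and begins 207 bases before the start of Slc1a2. The windows lie at chr7:132576349-132576648 (Oat, minus strand), chr2:165473148-165473447 (Slc13a3, minus strand) and chr2:102706188-102706487 (Slc1a2, plus strand).
Oat: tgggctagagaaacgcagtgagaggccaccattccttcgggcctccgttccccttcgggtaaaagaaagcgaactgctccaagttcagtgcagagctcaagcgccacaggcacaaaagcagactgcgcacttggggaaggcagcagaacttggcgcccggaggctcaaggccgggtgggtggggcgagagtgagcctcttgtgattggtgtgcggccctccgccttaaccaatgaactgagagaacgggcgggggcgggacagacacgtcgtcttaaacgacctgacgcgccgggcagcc
Slc13a3: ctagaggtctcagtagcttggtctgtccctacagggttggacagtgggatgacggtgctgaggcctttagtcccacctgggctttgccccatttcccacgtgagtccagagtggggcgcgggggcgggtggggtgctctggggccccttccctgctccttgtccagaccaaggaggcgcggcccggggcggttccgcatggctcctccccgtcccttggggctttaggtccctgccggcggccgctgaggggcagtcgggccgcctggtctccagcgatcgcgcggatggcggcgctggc
Slc1a2: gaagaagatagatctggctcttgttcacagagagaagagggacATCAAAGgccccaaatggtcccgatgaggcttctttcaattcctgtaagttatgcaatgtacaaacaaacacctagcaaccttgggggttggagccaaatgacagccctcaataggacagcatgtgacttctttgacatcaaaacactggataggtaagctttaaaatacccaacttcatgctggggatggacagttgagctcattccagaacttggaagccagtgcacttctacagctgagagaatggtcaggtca

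Slc13a3 encodes a sodium-coupled transporter of dicarboxylates such as succinate. Its tested probe set had a lowest, median and highest value of 4.03, 4.29 and 4.41 on the cafeteria diet, 4.10, 4.53 and 4.82 on the fast food diet, 4.09, 4.69 and 5.24 on the chimpanzee diet, and 4.12, 4.41 and 4.71 on pellets. The cafeteria diet had the lowest mean (4.24 ± 0.17) and the chimpanzee diet the highest (4.68 ± 0.46), with 4.48 ± 0.32 on the fast food diet and 4.41 ± 0.20 on pellets between them.

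Slc13a3 was lower on the cafeteria than on the chimpanzee diet, with a difference of -0.44 ± 0.11, or 1.35-fold (adjusted p = 0.0433). In batch 1 the 3 cafeteria mice (4.22, 4.36 and 4.38) lay below the 3 chimpanzee mice (4.89, 5.07 and 5.24), whereas in batch 2 the cafeteria mice (4.03, 4.04 and 4.41) and the chimpanzee mice (4.09, 4.29 and 4.49) overlapped. The difference was -0.74 in batch 1 alone (adjusted p = 0.0106) and -0.13 in batch 2 alone (adjusted p = 0.998). It was -0.50 (adjusted p = 0.104) with the beta-actin difference as a covariate, and the call was lost in 15 of the 24 fits that left out 1 mouse, with the difference between -0.52 and -0.36 and an adjusted p of up to 0.124. Those 15 were 4 cafeteria, 3 fast food, 5 chimpanzee and 3 pellet mice. A second probe set of Slc13a3, at 3.53 ± 0.28 on the cafeteria diet and 3.91 ± 0.24 on the chimpanzee diet, differed by -0.37 ± 0.10 (adjusted p = 0.0777 over all probe sets, where the tested one had 0.0521), and 2 more probe sets did not pass the filter.

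Slc1a2 encodes the glutamate transporter GLT-1, which in the liver is known from the same pericentral hepatocytes that make glutamine. Its tested probe set had a lowest, median and highest value of 4.69, 5.31 and 6.05 on the cafeteria diet, 4.88, 5.28 and 5.95 on the fast food diet, 4.65, 5.90 and 6.27 on the chimpanzee diet, and 4.48, 4.97 and 5.78 on pellets. Means were 5.41 ± 0.55 on the cafeteria diet, 5.32 ± 0.45 on the fast food diet, 5.69 ± 0.64 on the chimpanzee diet and 5.04 ± 0.43 on pellets, so the chimpanzee mice were highest and the pellet mice lowest. Of the 3 steps in that order, from chimpanzee to cafeteria to fast food to pellet, none passed the test.

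Slc1a2 was higher on the chimpanzee diet than on pellets by 0.66 ± 0.17, or 1.57-fold (adjusted p = 0.0149). The 3 chimpanzee mice of batch 1 (6.10, 6.22 and 6.27) lay above the 3 pellet mice of that batch (4.85, 5.19 and 5.78), and in batch 2 the chimpanzee mice (4.65, 5.22 and 5.70) overlapped the pellet mice (4.48, 4.96 and 4.99). The difference was 0.93 in batch 1 alone (adjusted p = 0.0184), 0.38 in batch 2 alone (adjusted p = 0.75) and 0.35 (adjusted p = 0.697) with the beta-actin difference as a covariate. Without replicate 1 of the pellet mice of batch 1 it was 0.53 (adjusted p = 0.0512). In the same comparison 5 of the 10 Kupffer cell markers, 1 of 11 endothelial and 1 of 8 stellate cell markers were lower on the chimpanzee diet. Their part in the difference was not tested, and 10.4% of all genes were called in that comparison. The tested probe set was chosen by a narrow margin, with a mean of 5.364 over all mice against 5.361 for the next. That second probe set stood at 5.45 ± 0.55 on the chimpanzee diet and 5.28 ± 0.18 on pellets, a difference of 0.17 ± 0.14 (adjusted p = 0.535). The other 2 probe sets of the gene with 1 symbol that passed the filter differed by 0.13 ± 0.10 and 0.08 ± 0.10 (adjusted p = 0.552 and 0.757), all with the same sign as the tested one, while 1 more stayed below the filter.

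**Figure D2:**
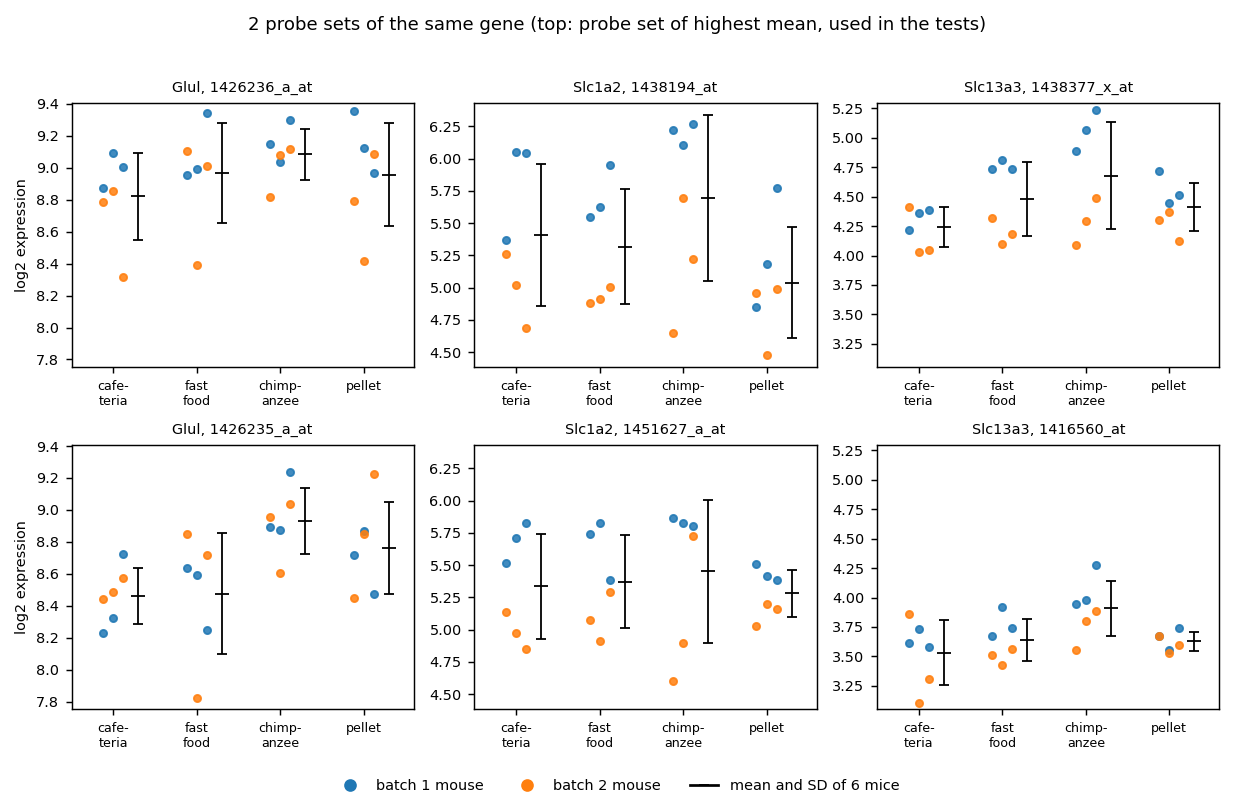
Log2 expression (vertical axis, shared by the panels of a gene) of 2 probe sets each of Glul, Slc1a2 and Slc13a3 in every mouse on the 4 diets, where blue points are batch 1 mice, orange points batch 2 mice, and black bars the mean and SD of 6 mice. The chimpanzee mice of batch 1 stand above the pellet mice in the upper panel of Slc1a2 by more than in the lower one, and the chimpanzee mice of Glul stand apart from the human diets more in the lower panel than in the upper.

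Rhbg encodes a membrane channel for ammonia, the other substrate of glutamine synthesis. Its level had a lowest, median and highest value of 3.72, 4.01 and 4.36 in the 12 mice on human diets, against 3.96, 4.39 and 4.75 on pellets. Rhbg was the only 1 of the 10 genes called between human diets and pellets, where 4.98% of all genes were called, and it was lower on human diets, at 4.07 ± 0.22, than on pellets, at 4.37 ± 0.33. The difference was -0.30 ± 0.08, or 1.24-fold (adjusted p = 0.0224). In batch 1 all 6 mice on human diets (mean 4.23) lay below all 3 pellet mice (mean 4.66), and in batch 2 the groups overlapped, with means of 3.90 on human diets and 4.08 on pellets. The difference was -0.44 in batch 1 alone (adjusted p = 0.0392) and -0.17 in batch 2 alone (adjusted p = 1). With the beta-actin difference as a covariate it was -0.30 (adjusted p = 0.0674), and taken within all 24 mice it was again -0.30 (adjusted p = 0.106). The call was also lost when any 1 of the 3 pellet mice of batch 1, or replicate 1 of those of batch 2, was left out, with differences of -0.27 to -0.30 and an adjusted p of up to 0.0753. On the chimpanzee diet Rhbg stood at 4.24 ± 0.33, and the human diets differed from it by -0.17 ± 0.11 (adjusted p = 0.503).

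Glul encodes glutamine synthetase, the enzyme whose restriction to the first ring of hepatocytes around the central vein is the textbook mark of that zone. Its tested probe set ran from 8.32 to 9.10 on the cafeteria diet, from 8.39 to 9.34 on the fast food diet, from 8.82 to 9.30 on the chimpanzee diet and from 8.42 to 9.36 on pellets, so the ranges of all 4 diets overlapped. Its mean was 8.89 ± 0.29 on human diets, 9.08 ± 0.16 on the chimpanzee diet and 8.96 ± 0.32 on pellets. The human diets differed from the chimpanzee diet by -0.19 ± 0.11 (95% interval -0.42 to 0.04, adjusted p = 0.457), and from pellets by -0.06 ± 0.12 (95% interval -0.31 to 0.19, adjusted p = 0.939). The result against the chimpanzee diet depended on the normalization between arrays: Glul was called lower on human diets after cyclic loess (-0.29, adjusted p = 0.0178), after quantile normalization (-0.28, adjusted p = 0.0296) and with the 90th percentile of each array as a covariate (-0.27, adjusted p = 0.0482). Across the 4 diets its adjusted p was 0.617 as deposited, 0.0167 after cyclic loess and 0.0259 after quantile normalization. The second probe set of Glul stood lower on human diets, at 8.47 ± 0.28, than on the chimpanzee diet, at 8.93 ± 0.21, and the difference of -0.46 ± 0.13 did not pass the test over all probe sets (adjusted p = 0.0846). On this second probe set the human diets and the chimpanzee diet overlapped, with a highest value of 8.85 on human diets and a lowest of 8.61 on the chimpanzee diet.

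Cnmd encodes chondromodulin, a secreted protein best known from cartilage as an inhibitor of vessel growth. On the cafeteria, fast food and chimpanzee diets, but not on pellets, its SD was above that of the other 9 genes, and its level ran from 2.81 to 6.42 on the cafeteria diet, 4.90 to 6.43 on the fast food diet, 2.80 to 4.79 on the chimpanzee diet and 4.19 to 5.00 on pellets. The low ends came from 3 mice of batch 1, 1 on the cafeteria diet and 2 on the chimpanzee diet, which read 2.80 or 2.81 and lay under the median of all probe set values, while the other 21 mice read between 3.98 and 6.43. The mean was 5.44 ± 1.00 on human diets, 3.93 ± 0.92 on the chimpanzee diet and 4.58 ± 0.31 on pellets.

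The human diets exceeded the chimpanzee diet by 1.51 ± 0.42 for Cnmd (95% interval 0.64 to 2.39), the largest estimate of the 10 genes, and the adjusted p was 0.0761. Every fast food mouse read higher than every chimpanzee mouse, and so did every cafeteria mouse but the low one of batch 1. Of 24 fits that left out 1 mouse, 22 did not call this difference, which lay between 1.34 and 1.76 with an adjusted p of up to 0.206. It was 1.34 without either of the 2 low chimpanzee mice (adjusted p = 0.206 and 0.177), 1.57 without replicate 3 of the cafeteria mice of batch 2 (adjusted p = 0.0385), and 1.73 without the low cafeteria mouse (adjusted p = 0.00982). Against pellets, leaving out the low cafeteria mouse gave 1.10 (adjusted p = 0.00832), the only call in 24 such fits, where with all mice the human diets exceeded pellets by 0.86 ± 0.38 (adjusted p = 0.277).

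Of the other 4 genes, Axin2, Lgr5 and Rnf43 are parts of the Wnt pathway or its regulators, and Tbx3 is a transcription factor. No difference between diets was called for any of the 4. Axin2, a scaffold of the complex that destroys beta-catenin and a general target of Wnt signalling, had a mean of 3.53 ± 0.18 on human diets, 3.59 ± 0.08 on the chimpanzee diet and 3.69 ± 0.08 on pellets. Lgr5, a receptor for R-spondins, had a mean of 3.40 ± 0.20 on human diets, 3.48 ± 0.12 on the chimpanzee diet and 3.58 ± 0.09 on pellets. Both genes read close to the median of all values (3.147) on every diet, and 2 of the 24 arrays fell below it for Lgr5. Each of them had 1 more probe set, which exceeded that median in 2 arrays and was not tested.

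Rnf43, a ubiquitin ligase that clears Frizzled from the cell surface, had a mean of 4.13 ± 0.23 on human diets, 4.30 ± 0.24 on the chimpanzee diet and 4.17 ± 0.22 on pellets. Tbx3, a transcription factor of the T-box family, had a mean of 3.85 ± 0.29 on human diets, 3.89 ± 0.29 on the chimpanzee diet and 4.13 ± 0.37 on pellets. The human diets differed from pellets by -0.28 ± 0.10 for Tbx3 (adjusted p = 0.128), -0.15 ± 0.07 for Axin2 (adjusted p = 0.344), -0.18 ± 0.08 for Lgr5 (adjusted p = 0.334) and -0.04 ± 0.11 for Rnf43 (adjusted p = 0.964). All 4 point estimates were below 0, and the 95% intervals reached from -0.48 to -0.08 for Tbx3, -0.31 to -0.00054 for Axin2, -0.35 to -0.0026 for Lgr5 and -0.27 to 0.19 for Rnf43. The same 4 genes differed between human diets and the chimpanzee diet by -0.17 ± 0.11 (Rnf43), -0.08 ± 0.08 (Lgr5), -0.06 ± 0.07 (Axin2) and -0.04 ± 0.10 (Tbx3). Tbx3 had 4 further probe sets above the filter. The one of them with the highest mean (3.53) differed between human diets and pellets with the same sign as the tested one. Its difference was -0.36 ± 0.14 (adjusted p = 0.22 over all probe sets). The other 3, with means of 3.08 to 3.33 close to the median of all values (3.147), differed with a positive sign. Their differences were 0.07 to 0.08, at adjusted p between 0.817 and 0.877.

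Between human and chimpanzee diets, 0 of the 10 genes were called with limma, where 1.49% of all genes were called and 4 of the 10 had an unadjusted p under 0.05, as had 14.3% of all genes. Those 4 were Oat (0.60 ± 0.15, adjusted p = 0.0519), Cnmd, Slc13a3 (-0.32 ± 0.11, adjusted p = 0.152) and Slc1a2 (-0.33 ± 0.13, adjusted p = 0.235). After cyclic loess Glul, Oat, Cnmd and Slc13a3 were called in this comparison. The methods' procedure differed in several steps at once. It had an unmoderated two-way model, a filter of 2 arrays, the lowest p over the probe sets of a gene and an unadjusted p of 0.01. Another step was the removal of probe sets with a diet-by-batch interaction at p under 0.05. The study itself filtered on detection p-values, so the genes counted here are not the study's own set. The procedure named 4 of the 10 genes (Glul, Oat, Cnmd and Slc13a3) beside 5.64% of all 14235 genes, and 0 of the 10 after Benjamini-Hochberg adjustment. For Glul the unadjusted limma p was 0.0974 on the tested probe set and 0.00156 on the second one. The median difference of the 10 genes was -0.13, beside 0.0039 over all genes, with 2 estimates above 0 and 8 below. Between human diets and pellets 1 of 10 was called, the median was -0.057 beside -0.0057 over all genes, and 3 estimates were above and 7 below 0.

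**Figure D3:**
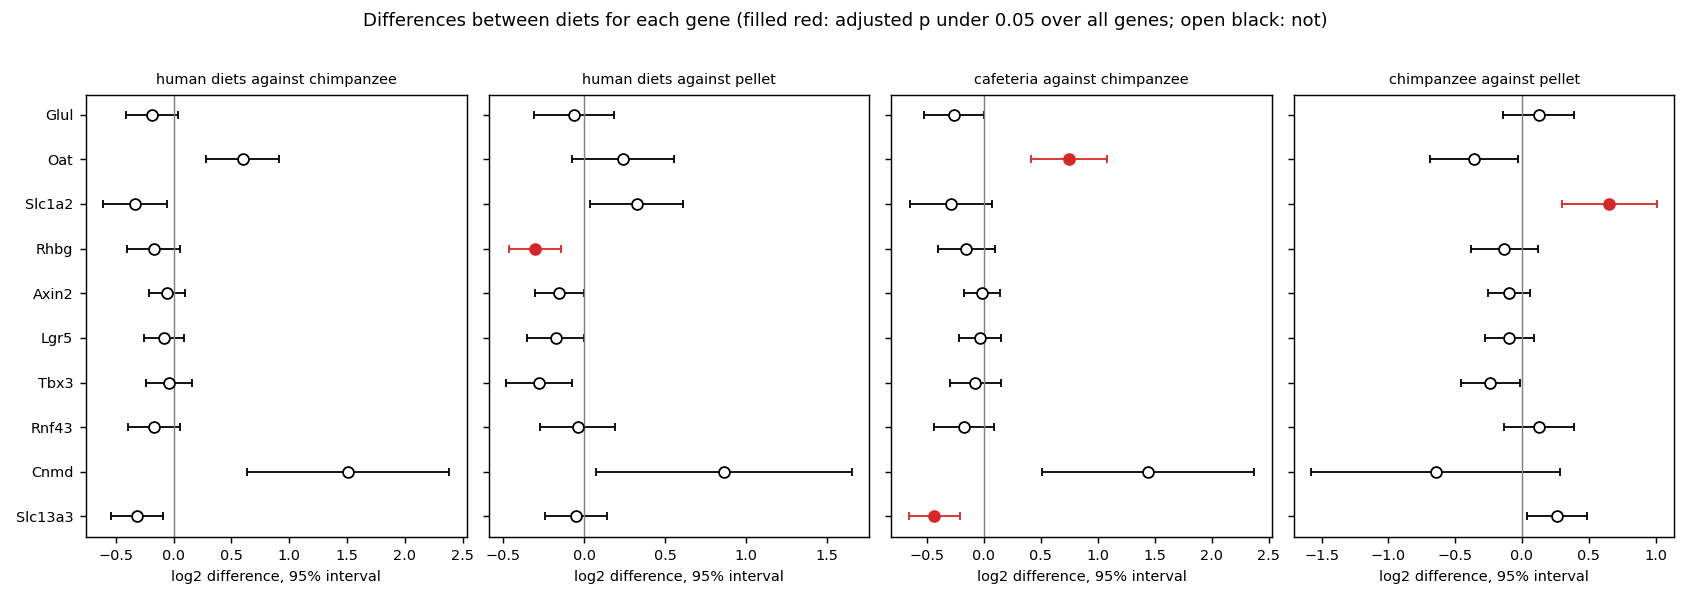
Log2 difference (horizontal axis) of each of the 10 genes with its 95% interval in 4 comparisons, with called genes in filled red and the others in open black. Oat and Cnmd lie right of 0 in human diets against chimpanzee (0.60 and 1.51) without being called, and red points mark Rhbg, Oat, Slc13a3 and Slc1a2 in the other 3 panels.

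Over the 6 pairs of diets, 3 of 60 tests were called, namely Oat and Slc13a3 between the cafeteria and chimpanzee diets (1.26% of all genes called) and Slc1a2 between the chimpanzee diet and pellets (10.4%). Between the fast food and chimpanzee diets (2.03%), the fast food diet and pellets (3.40%), and the cafeteria diet and pellets (4.80%), 0 of the 10 genes were called with limma, while 3, 4 and 4 of them had an unadjusted p under 0.05, beside 15.8%, 12.1% and 15.0% of all genes in the same order. Between the cafeteria and fast food diets 0.00747% of all genes were called, 0 of the 10 genes were, and 1 (Slc13a3, -0.24 ± 0.11, adjusted p = 0.939) had an unadjusted p under 0.05, as had 5.11% of all genes. Several of these comparisons share mice, so their values are given side by side and were not set against each other. For Oat, the difference between cafeteria and fast food diets was 0.30 ± 0.16 (95% interval -0.03 to 0.64).

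The genes upstream of the 10 in the pathway came from lists of names. Of 15 ligands and R-spondins, 9 were tested and 0 were called by limma in any comparison or had an unadjusted p under 0.05. Among the untested ones was Rspo3, the R-spondin of the central vein. Wnt2 and Wnt9b, the ligands known from endothelial cells of the central vein, stood at 3.93 ± 0.17 and 3.68 ± 0.26 on human diets, 3.93 ± 0.16 and 3.70 ± 0.27 on the chimpanzee diet, and 4.00 ± 0.22 and 3.60 ± 0.21 on pellets. These means lay not far above the median of all values (3.147), so the lack of calls is not read as a lack of change in the ligands. Of 10 receptors tested, Lrp5 was lower on the cafeteria diet than on pellets (-0.36 ± 0.09, adjusted p = 0.0151) and the co-receptor Ryk was higher on the chimpanzee diet than on pellets (0.38 ± 0.09, adjusted p = 0.00559). Among all genes, 4.80% were called for the cafeteria diet against pellets and 10.4% for the chimpanzee diet against pellets. Lrp5 stood at 2.92 ± 0.08 on the cafeteria diet and 3.27 ± 0.23 on pellets, around the median of all values. Of 16 genes of signal transduction, 1 was called, the beta-catenin cofactor Bcl9l, which was higher on the chimpanzee diet than on pellets (0.27 ± 0.08, adjusted p = 0.0396), where 10.4% of all genes were called. Ctnnb1, which encodes beta-catenin itself, stood at 9.88 ± 0.24 on human diets, 9.74 ± 0.20 on the chimpanzee diet and 9.95 ± 0.26 on pellets.

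Of 9 inhibitors tested, 1 was called, and it was Notum, a secreted enzyme that strips Wnt ligands of their lipid and is itself a target of the pathway. Notum had a lowest, median and highest value of 5.51, 6.01 and 6.26 on human diets, 5.93, 6.53 and 6.70 on the chimpanzee diet, and 5.00, 5.70 and 6.22 on pellets. The chimpanzee mice were the highest, and they overlapped both other groups at their lower end. Notum was lower on human diets than on the chimpanzee diet by a difference of -0.45 ± 0.08 (adjusted p = 0.0105), and it was higher on the chimpanzee diet than on pellets by 0.69 ± 0.12 (adjusted p = 0.000502). In these comparisons 1.49% and 10.4% of all genes were called, in the same order.

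The share of all genes called was 1.49% between human and chimpanzee diets, with 154 genes higher and 46 lower on human diets. Against pellets it was 4.98% for human diets and 10.4% for the chimpanzee diet. Of 20 other genes with pericentral expression, 2 were lower on human diets than on the chimpanzee diet and none was higher. These were Gulo, the last enzyme of vitamin C synthesis in mice (-0.65 ± 0.09, adjusted p = 0.00116), and Avpr1a, a vasopressin receptor (-0.55 ± 0.14, adjusted p = 0.0492). Against pellets, 3 were higher on human diets, namely Aldh3a2, which oxidizes fatty aldehydes (1.16 ± 0.11, adjusted p = 1.68e-06), Nr1i3, the xenobiotic receptor CAR (0.94 ± 0.12, adjusted p = 5.29e-05), and Aldh1a1, which makes retinoic acid (0.48 ± 0.10, adjusted p = 0.0075), and 1 was lower, Avpr1a (-0.70 ± 0.13, adjusted p = 0.00196). Cyp2e1 and Cyp1a2, the classical cytochromes of the zone, were not called in any comparison, with 12.07 ± 0.16 and 10.25 ± 0.20 on human diets, 12.06 ± 0.11 and 10.23 ± 0.30 on the chimpanzee diet, and 11.89 ± 0.11 and 10.39 ± 0.19 on pellets. Between the chimpanzee diet and pellets, Aldh3a2, Nr1i3 and Gulo were higher and the glutathione transferase gene Gstm3 was lower on the chimpanzee diet.

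Of 16 periportal genes, 0 were called between human and chimpanzee diets by limma, with 6 at an unadjusted p under 0.05 beside 14.3% of all genes, and a median difference of 0.21. Between the cafeteria and chimpanzee diets, 2 periportal genes were higher on the cafeteria diet, Tat, which breaks down tyrosine (0.69 ± 0.14, adjusted p = 0.0117), and Aldh1b1, a mitochondrial aldehyde dehydrogenase (0.74 ± 0.18, adjusted p = 0.0373), while 2 of the other pericentral genes, Gulo (-0.61 ± 0.11, adjusted p = 0.00396) and Avpr1a (-0.68 ± 0.15, adjusted p = 0.0241), were lower. Against pellets, Pck1, a key enzyme of gluconeogenesis, was higher on human diets (0.79 ± 0.14, adjusted p = 0.00145), while Hal, which breaks down histidine (-0.61 ± 0.14, adjusted p = 0.011), and Cdh1, which encodes E-cadherin (-0.93 ± 0.22, adjusted p = 0.013), were lower. Between the chimpanzee diet and pellets, Pck1 was higher and Hal, Cdh1 and Aldh1b1 were lower on the chimpanzee diet. Against pellets, called genes of both zones went in both directions. The share of all genes called was 1.26% for the cafeteria against the chimpanzee diet. It was 4.98% for human diets against pellets and 10.4% for the chimpanzee diet against pellets.

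Between human and chimpanzee diets 1.49% of all genes were called, 154 of them higher and 46 lower on human diets. Against pellets 4.98% were called for human diets and 10.4% for the chimpanzee diet. Of 21 further genes for glutamate, glutamine and ornithine handling, 3 were higher on human diets than on the chimpanzee diet and none was lower. They were Got1, the cytosolic aspartate aminotransferase (1.08 ± 0.26, adjusted p = 0.0415), Gpt, an alanine aminotransferase (0.51 ± 0.11, adjusted p = 0.0271), and Slc38a4, an amino acid transporter (0.42 ± 0.10, adjusted p = 0.0386). Against pellets, Gpt (0.43 ± 0.10, adjusted p = 0.0115) and Aldh4a1, which completes the breakdown of proline to glutamate (0.38 ± 0.07, adjusted p = 0.003), were higher on human diets. On the chimpanzee diet Got1 (-1.38 ± 0.22, adjusted p = 0.000247) and the mitochondrial ornithine carrier Slc25a15 (-0.38 ± 0.12, adjusted p = 0.0498) were lower than on pellets.

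The 3 genes whose level followed that of Oat most closely over the 24 mice, after subtraction of batch means, were Slc38a4 (Pearson r = 0.82), Gnpnat1 (r = 0.81), an enzyme of the hexosamine pathway, and Dcaf11 (r = 0.81), an adaptor of a ubiquitin ligase. They are given as a description, since the mice share diets and array quality, and Slc38a4 had a mean of 10.57 ± 0.19 on human diets, 10.15 ± 0.29 on the chimpanzee diet and 10.26 ± 0.20 on pellets.

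**Figure D4:**
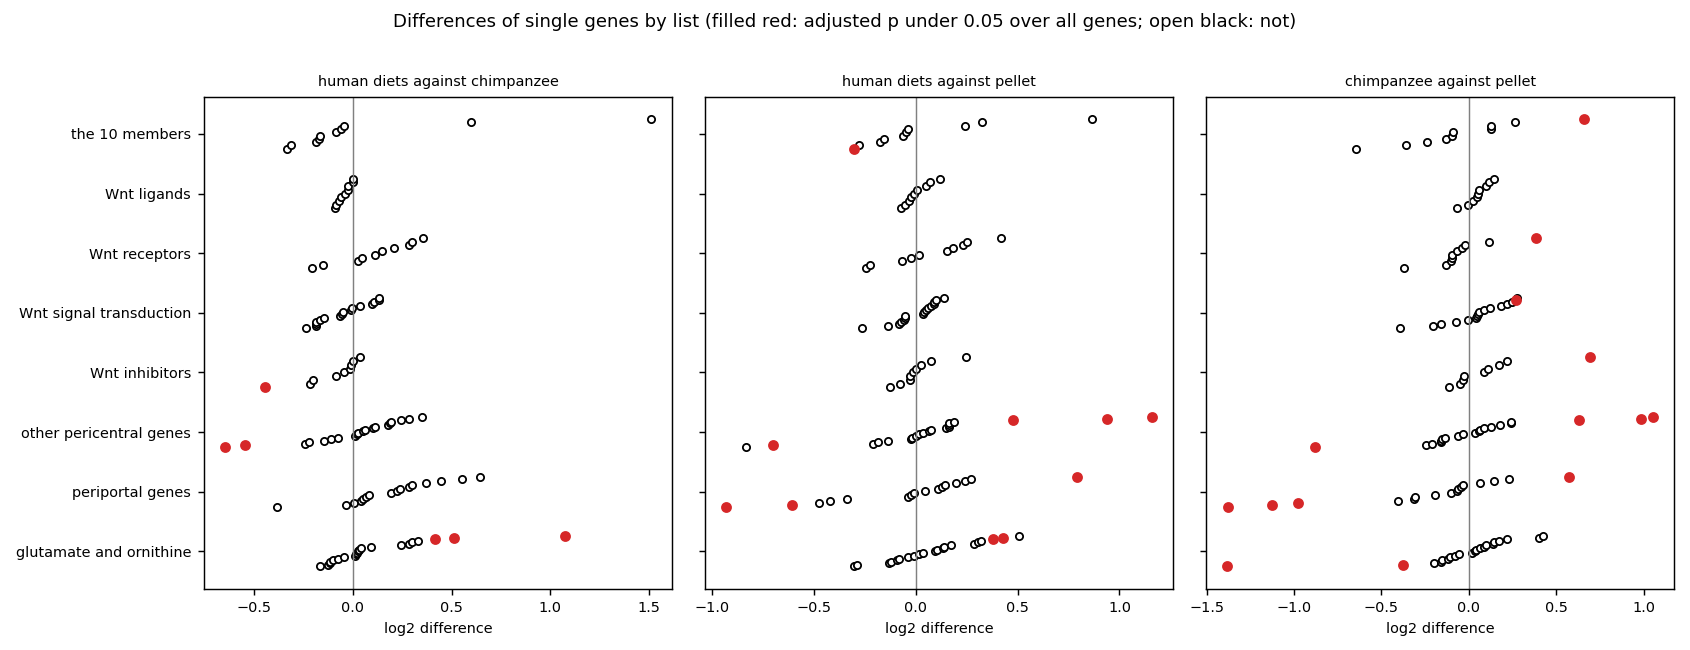
Log2 difference (horizontal axis) of every tested gene of the 10 and of 7 lists of related genes (rows) in 3 comparisons, with called genes in filled red and the others in open black. The Wnt ligands gather around 0 in all 3 panels, while called genes of the other pericentral and the periportal lists lie on both sides of 0 against pellets.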

How the data were processed

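Liver RNA (5 µg per mouse, extracted with Trizol) of 24 mice was hybridised to Affymetrix Mouse Genome arrays, 1 array per mouse. The deposited values are log2 expression per probe set, which the authors made with the rma method of the Bioconductor affy package, whose version is not given in the sources used here, and they ran from 1.90 to 13.01. That method, as the study describes it, includes quantile normalization, whereas the arrays did not share 1 distribution, so how the deposited values were normalized between arrays is not settled, and a further normalization changes the counts of calls. No raw intensities were used, and microarray values carry no counts, so the number of arrays limits the precision. The brain arrays of the study were not analysed here.

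Of 45101 probe sets, 64 were controls, 34945 carried 1 gene symbol, 932 several and 9160 none in the platform annotation, and a probe set with several symbols was not named. Of the symbols, 34741 were found in RefSeq, where Lect1 is a synonym of Cnmd. Probe sets above 3.147 in at least 6 arrays were kept (25544), and each gene was represented by the one with the highest mean.

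Tests were made in limma (version 3.58.1, under R 4.3.3) and carried batch as a covariate: human diets against chimpanzee or pellet among the 18 mice concerned, the 6 pairs and the F test among all 24. P-values were adjusted over all 13385 genes at 0.05. Mice are separate animals, and littermates were spread over the diets without labels that link them. The fit was tested on simulated data. Settings varied were the filter, batch, replicate block, between-array normalization, array weights, intensity trend, covariates for brightness and beta-actin, every probe set as its own feature, the methods' procedure and leaving out each mouse. The text names the 10 genes, up to 4 genes of smallest p in each list, further called ones and the 3 genes most like Oat, and Ctnnb1, Cyp2e1 and Cyp1a2 were named after their values were seen. The members and lists were chosen with earlier results of these data known.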

Additional observations from a re-analysis of the deposited data

Results flagged for a closer look

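Among 80 sets of 6 mice of 1 diet tested for a mouse that stands apart (gap to the nearest mouse over the range of the set), 4 had one, and chance gives about 1 in 20. For Cnmd, 1 cafeteria mouse of batch 1 was lowest at 2.81, with the nearest cafeteria mouse at 5.12 and the highest at 6.42. For Lgr5, 1 pellet mouse of batch 1 was highest at 3.76, with the nearest at 3.59 and the lowest at 3.50. A probe set of Slc1a2 that was not the tested one had 1 cafeteria mouse of batch 2 highest at 3.95, with the nearest at 3.39 and the lowest at 3.08. The probe set shared by Slc1a2 and a second gene had 1 fast food mouse of batch 2 highest at 4.58, with the nearest at 4.22 and the lowest at 4.01.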

How the results depend on the processing

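The number of the 10 genes called was 1 across the 4 diets, 0 between human and chimpanzee diets, 1 between human diets and pellets, and 3 over the 6 pairs. In that order it was 0, 0, 0 and 0 with batch left out, in batch 2 alone and with the beta-actin difference as a covariate, 5, 4, 1 and 6 after cyclic loess, 5, 3, 1 and 5 after quantile normalization, 4, 4, 1 and 7 with array weights, 4, 3, 1 and 4 with the 90th percentile as a covariate, and 2, 1, 1 and 3 with an intensity trend. In batch 1 alone it was 1 (Slc13a3), 0, 1 and 4. With a filter of at least 12 arrays 1 gene was called between human and chimpanzee diets. Within all 24 mice the count was 2 for human against chimpanzee diets and 0 for human diets against pellets. The methods' procedure gave 1, 4, 1 and 1 at an unadjusted p of 0.01 and 0, 0, 1 and 0 after Benjamini-Hochberg adjustment. Leaving out 1 mouse gave 1 to 3, 0 to 2, 0 to 2 and 1 to 5. The number of all genes called also changed with the setting, as given below for human against chimpanzee diets in some settings. The counts are therefore not read as a result about the 10 genes. The cause of these shifts was not tested.

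Deviations of mice with the same replicate number correlated at r from -0.63 to 0.41, with 12 of 36 pairs over 0.1. Mice with different numbers were not compared, so whether same-number mice deviated together is not settled. With the replicate block the counts were 0, 0, 1 and 2, with Oat across the diets at adjusted p = 0.0507 and Slc13a3 between cafeteria and chimpanzee diets at adjusted p = 0.0853. Over all genes, 200 were called between human and chimpanzee diets, against 543 after cyclic loess, 1272 with array weights, 34 with batch left out and 5 with the beta-actin covariate.

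Of 871 alternatives of 23 differences of single genes, 802 kept direction and side of the threshold, 25 passed it newly, 40 no longer did and 4 changed sign. These 4 were Tbx3 between human and chimpanzee diets in batch 2 alone (0.00043), Glul between human diets and pellets with array weights (0.026), and Rnf43 between human diets and pellets without 1 of 2 pellet mice (0.010 and 0.026, the range over all mice left out being -0.087 to 0.026).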
